A study of Drosophila melanogaster with 2 samples.

Results

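Binding of the transcription factor cato was examined at 10 genes of neuroblasts, the neural stem cells of the fly: brat, mira, pros, wor, dpn, nub, pdm2, cas, grh and mid. The genes were listed by name from their known roles, at a time when earlier results of these data were known. All 10 were found among the 13968 protein-coding genes that Ensembl places on the main chromosomes of Drosophila melanogaster. For each gene, every chromatin immunoprecipitation peak was collected that overlapped its body or the 5 kb on either side by at least 1 bp. The study has 1 condition. Chromatin came from whole embryos of both sexes, aged 0 to 16 h, of a transgenic line in which cato carries a C-terminal eGFP, and an antibody against GFP pulled the fusion protein down. The 2 biological replicates bear the numbers 1 and 3 in the labels, and no untagged line or input library was analysed here. Each replicate has a deposited list of 30000 peaks with weak ones included. The 1 further list holds the 2746 peaks that passed the irreproducible discovery rate (IDR) procedure, which selects on ranks. Of these peaks, 3 overlapped no replicate 1 peak and 2 overlapped no replicate 3 peak. A place in the list thus does not ensure like ranks in both replicates. All 7 IDR peaks described below are 404 bp wide. A peak's signal value is the deposited one, on the scale of the authors' peak caller, so it is set only beside others of its own list, mainly as a rank from 1 for the strongest. Read depth is unknown. In whole embryos, binding in few cells and weak binding in many cells cannot be told apart.

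Neuroblasts divide unequally into another neuroblast and a smaller daughter that goes on to differentiate. The adaptor protein Mira carries the translational repressor Brat and the homeodomain factor Pros into that daughter, where they end self-renewal, while Snail-family and Hes-family factors such as Wor and Dpn keep the neuroblast state. A sequence of temporal factors, among them Nub, Pdm2, Cas and Grh, sets which neurons a neuroblast makes as it ages. The T-box factor Mid takes part in patterning the embryonic epidermis and nervous system. The basic helix-loop-helix factor cato belongs to the atonal family and is known from developing sensory neurons of the peripheral nervous system.

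Of the 10 neuroblast genes, 4 had an IDR peak, a share near that of all protein-coding genes, 37.0%. These were brat with 4 peaks, and pros, dpn and grh with 1 each, 7 peaks in all. Mira, wor, nub, pdm2, cas and mid had none. The genes are long, with a median length of 17557 bp against 2164.5 bp for all protein-coding genes, and a long gene offers more room for peaks. All protein-coding genes were therefore put into 10 length classes of nearly equal size, and over the classes of the 10 genes 45.11% on average had an IDR peak. The windows of the 10 genes held 0.197 IDR peaks per 10 kb, and the genome 0.200. Only 1 of the 10 genes, brat, had an IDR summit within 500 bp of one of its own start sites, against 13.8% of all protein-coding genes. A strong peak in each replicate, taken as one among its 2746 strongest, lay in the windows of 3 of the 10, brat, pros and grh, against 31.6% of all. Shares this close to the background are no result about these genes as a set, and no test was made with 1 condition. An IDR summit inside the gene body was found at 2 of the 10, brat and grh. With the gene body alone or 1 kb on each side the 4 genes became these 2. The share of all protein-coding genes was not counted for these narrower windows, so these counts have no background beside them. Of the 2746 strongest peaks of the authors' pooled list, some lay at brat, pros and pdm2 and none at dpn or grh. The pooled list has other peak intervals and signal values than the IDR list and shares no row with it. The strongest peak at each gene differed widely in rank between genes, as the plot of strongest ranks shows.

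**Figure D1:**
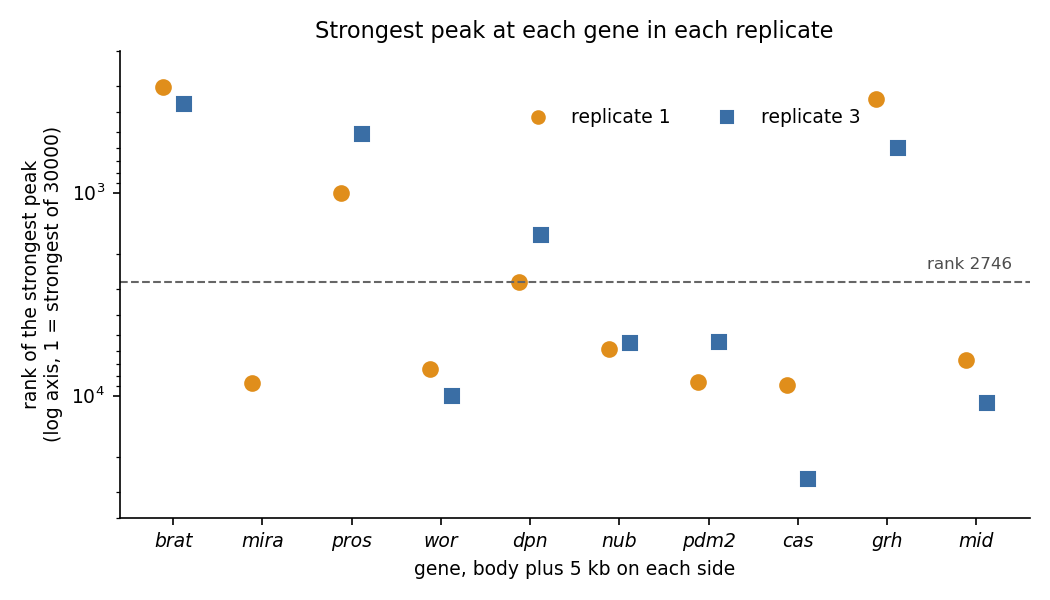
Rank of the strongest peak in the body or within 5 kb of each gene (log axis, 1 at the top for the strongest of 30000), with circles for replicate 1 and squares for replicate 3. Brat, pros and grh lie above the dashed line at rank 2746 in both replicates, dpn in replicate 3 only, and the other 6 genes lie below it in both. Mira has no replicate 3 peak.

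The gene brat (FBgn0010300, chr2L:19133816-19179758, plus strand) had the most IDR peaks of the 10, in a long window of 55943 bp. Per 10 kb it had the most replicate 3 peaks, 5.0. In replicate 1 it had 3.039, and mid (3.757), wor (3.256) and grh (3.095) had more. All protein-coding genes had a mean of 0.539 IDR peaks, and 140 of them, 1.00%, had 4 or more, as brat does. In the class of the longest genes, to which brat belongs, 82 of 1397, 5.87%, had 4 or more. Its strongest IDR peak, at chr2L:19164914-19165317, lay in an intron 751 bp upstream of an internal start site of brat. Its signal value of 209.6 ranked 340 of 2746. It had a signal value of 72.2 at rank 302 in replicate 1 and of 106.0 at rank 364 in replicate 3. Its rank was high in both replicates, and no start site of another gene was nearer. The window of brat held 17 peaks of replicate 1 and 28 of replicate 3, and 13 of the 17 overlapped a replicate 3 peak.

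The other 3 brat peaks were less even or lay at other genes. The peak at chr2L:19131879-19132282 had an IDR signal value of 124.2, and it ranked 852 in replicate 1 and 1171 in replicate 3. It ended 1534 bp before brat, between the start sites of AsnRS, an asparaginyl-tRNA synthetase gene, at 127 bp from its summit and of DCTN6-p27, a dynactin subunit gene, at 242 bp. The peak at brat's own first start site, chr2L:19133495-19133898, had its summit 119 bp upstream and an IDR signal value of 69.4 at rank 2716, close to the lowest value of the list, 68.9. Its replicates were far apart: in replicate 3 the signal value was 43.8 at rank 2039, and in replicate 1 it was 8.16 at rank 24118. Over all IDR peaks, 9 of 2746, or 0.328%, ranked beyond 20000 in replicate 1, so the brat promoter peak is one of 9. The start site of Polr1D, an RNA polymerase subunit gene, was 214 bp from the same summit on the other strand, so the peak cannot be given to brat alone. The intronic peak at chr2L:19141787-19142190 had an IDR signal value of 102.1. It ranked 832 in replicate 3 and 3500 in replicate 1, and the nearest brat start site was 8173 bp upstream. A start site of Polr1D, which overlaps brat, was nearer, at 6756 bp.

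The sequences under these 4 brat summits are shown because brat has most of the IDR peaks of the 10 genes, and they let a strong peak be set beside a weak one. Each is an IDR summit with 50 bp on either side on dm6, plus strand, read from the RefSeq copy of the assembly, with every E-box in capitals. An E-box is CANNTG, the hexamer that basic helix-loop-helix proteins bind.
Intron, strongest (chr2L:19165066-19165166): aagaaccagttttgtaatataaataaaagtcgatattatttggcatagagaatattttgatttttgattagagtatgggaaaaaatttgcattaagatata
AsnRS and DCTN6-p27 start sites (chr2L:19132031-19132131): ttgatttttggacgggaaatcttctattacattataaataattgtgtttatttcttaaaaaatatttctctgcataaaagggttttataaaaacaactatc
First start site of brat (chr2L:19133647-19133747): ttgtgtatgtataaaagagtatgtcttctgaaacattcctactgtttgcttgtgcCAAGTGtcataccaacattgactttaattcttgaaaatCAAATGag
Intron, 8173 bp from the first start site (chr2L:19141939-19142039): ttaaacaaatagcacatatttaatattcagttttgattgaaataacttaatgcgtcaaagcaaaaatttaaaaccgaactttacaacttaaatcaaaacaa
Only the weakest of the 4, at brat's first start site, held E-boxes, 1 CAAGTG and 1 CAAATG. The other 3 windows each had 22.8% GC and no E-box.

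The single IDR peak counted for pros (FBgn0004595, chr3R:11328480-11407627, plus strand) lay beyond its far end. The peak, chr3R:11409804-11410207, started 2177 bp after pros and its summit was 41 bp upstream of the start site of Irbp, a DNA repair gene of the Ku70 family. The start site of another gene, mgr, was 131 bp away. The IDR signal value was 151.2 at rank 664, with 40.3 at rank 1009 in replicate 1 and 88.4 at rank 516 in replicate 3. It thus ranked high in both replicates, at a promoter that is not that of pros. Its window, in the same form as those of brat, had 25.7% GC and no E-box.
Irbp start site (chr3R:11409956-11410056): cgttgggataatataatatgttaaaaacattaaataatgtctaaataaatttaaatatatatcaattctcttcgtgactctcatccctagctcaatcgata
Within pros itself, the strongest peaks were not in the IDR list. An exonic peak at chr3R:11392806-11393185 in replicate 1 had a signal value of 23.6 at rank 2457, and the overlapping replicate 3 peak had 31.3 at rank 3435. An intronic peak 3491 bp downstream of a pros start site ranked 3370 in replicate 1 and 2088 in replicate 3. Each was among the 2746 strongest in 1 replicate and outside them in the other. The window held 21 peaks of replicate 1 and 18 of replicate 3, and 8 of the former overlapped one of the latter. The map of peaks along brat, pros, grh and nub shows these positions.

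**Figure D2:**
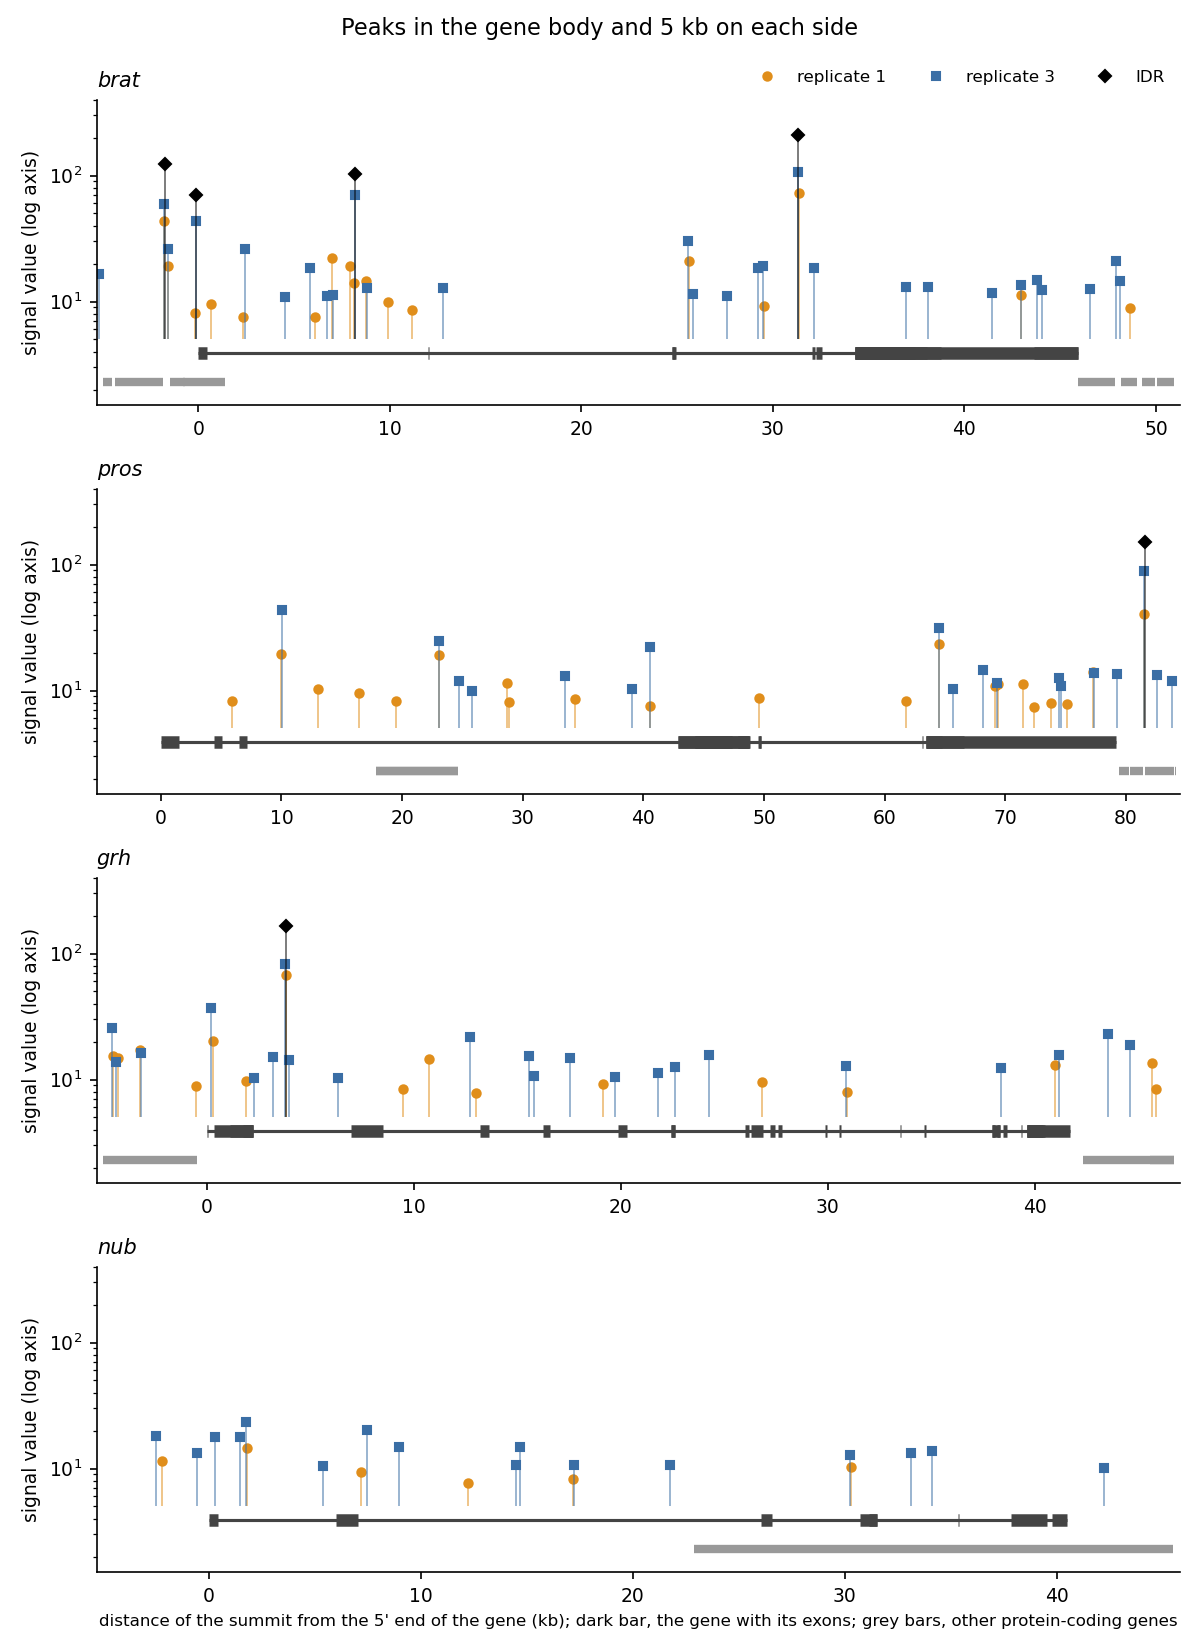
Signal value (log axis) against distance of the summit from the 5' end of the gene (kb, on the gene's own strand) for brat, pros, grh and nub, with circles for replicate 1, squares for replicate 3 and diamonds for IDR peaks. Dark bars are the named gene with its exons and grey bars other protein-coding genes. Each list has its own scale, so heights are compared within a list only. The IDR peak of pros stands past the end of the gene, that of grh near the 5' end, and nub has none.

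Among the genes that keep the neuroblast state, neither wor nor dpn had an IDR peak in its body. The gene dpn (FBgn0010109, chr2R:8228971-8232330, minus strand) encodes a Hes-family repressor. The peak counted for it, chr2R:8237183-8237586, began 4853 bp from the gene, just inside the 5 kb limit, and its summit was outside that limit. The summit was 114 bp downstream of the start site of pnut, a septin gene. The IDR signal value was 84.5 at rank 2004. Replicate 3 had a signal value of 50.5 at rank 1617 and replicate 1 had 21.9 at rank 2757, so this peak was strong in replicate 3 and just outside the 2746 strongest in replicate 1. The window of dpn held 2 peaks of replicate 1 and 4 of replicate 3. The next strongest peak at dpn ranked 14650 in replicate 3 and 15824 in replicate 1, and these did not overlap a peak of the other replicate. The gene wor (FBgn0001983, chr2L:15423297-15425580, minus strand) encodes a Snail-family zinc finger factor. Its strongest peak had a signal value of 13.2 at rank 7366 in replicate 1, at an intergenic place, and of 17.3 at rank 10066 in replicate 3, in the coding exon. These were at different places. Each replicate had 4 wor peaks. The one pair of wor peaks that overlapped between replicates ranked 29954 and 29958, at the bottom of both lists.

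Of the 4 temporal factor genes, grh alone had an IDR peak. The gene grh (FBgn0259211, chr2R:17801132-17842820, plus strand) encodes the Grainyhead factor, which also acts in the epidermis. Its peak, chr2R:17804785-17805188, lay in an intron 2120 bp downstream of the nearest grh start site, and no other protein-coding gene has a start site closer. The IDR signal value was 164.8 at rank 564. It was 67.3 at rank 346 in replicate 1 and 82.0 at rank 601 in replicate 3, so both replicates ranked it high. A further grh peak, near its first start site and 42 bp from that of the antisense RNA asRNA:CR45270, had a signal value of 20.1 at rank 3165 in replicate 1 and of 37.2 at rank 2666 in replicate 3. It was not in the IDR list. In all, grh had 16 peaks in replicate 1 and 22 in replicate 3, and 9 of the 16 overlapped a replicate 3 peak. The strand of origin cannot be read from peaks, so start sites of overlapping genes share them.

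The POU-domain factor genes nub and pdm2 had no IDR peak in windows of 50511 and 39142 bp. In the class of the longest genes, to which both belong, 50.3% had one. At nub (FBgn0085424, chr2L:12587625-12628135, plus strand), 6 peaks were found in replicate 1 and 16 in replicate 3. Of the 6, 5 overlapped a replicate 3 peak, while 10 of the 16 had no overlapping replicate 1 peak. The strongest shared place, in an intron 1784 bp downstream of a start site, had a signal value of 14.5 at rank 5880 in replicate 1 and of 23.5 at rank 5502 in replicate 3. At pdm2 (FBgn0004394, chr2L:12657165-12686306, plus strand), the counts were 5 and 9, with 1 replicate 1 peak shared. The strongest pdm2 peak was an intronic one of replicate 3, with a signal value of 23.6 at rank 5431, that no replicate 1 peak overlapped. The zinc finger gene cas (FBgn0004878, chr3R:5712975-5716805, minus strand) had 3 peaks in replicate 1 and 1 in replicate 3, and none was shared. Their best ranks were 8864 and 25631. The cas peak of rank 8864 lay in a coding exon of the neighbouring gene plx.

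Like cas, neither mira nor mid had a peak that both replicates shared. The gene mira (FBgn0021776, chr3R:19931799-19935120, minus strand) had 1 peak in replicate 1, with a signal value of 12.4 at rank 8660, in a coding exon of the neighbouring gene CG4459. It had none in replicate 3, as was the case for 1327 of 13968 protein-coding genes, or 9.50%. The gene mid (FBgn0261963, chr2L:5461639-5467610, plus strand) had 6 peaks in replicate 1 and 4 in replicate 3, with best ranks of 6678 and 10885, and none overlapped between replicates. Beyond the 5 kb limit, the nearest IDR peaks of these 6 genes lay 7124 bp from cas and 9030 bp from mid, with signal values of 92.0 and 142.6, 18133 bp from pdm2 and farther from mira, nub and wor. The mid peak, chr2L:5476640-5477043, ranked 854 in replicate 1 and 716 in replicate 3. Its nearest start site, with transposable elements left out, was that of the non-coding RNA gene lncRNA:CR45287. That of mid was the nearest among protein-coding genes only, so the peak cannot be given to mid.

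For 3 genes without an IDR peak, a replicate 1 peak overlapped a replicate 3 peak. The summit of 1 such replicate 1 peak per gene is printed with 50 bp on either side for comparison with the brat windows. These peaks ranked 5880 at nub, 27085 at pdm2 and 29954 at wor in replicate 1. The strongest replicate 3 peaks that overlapped them ranked 5502, 9909 and 29958. E-boxes are in capitals as before.
nub, intron (chr2L:12589359-12589459): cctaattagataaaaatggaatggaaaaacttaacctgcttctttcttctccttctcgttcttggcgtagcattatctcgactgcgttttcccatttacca
pdm2, intron (chr2L:12665642-12665742): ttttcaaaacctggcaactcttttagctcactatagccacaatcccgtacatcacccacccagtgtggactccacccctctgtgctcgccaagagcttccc
wor, downstream intergenic (chr2L:15421412-15421512): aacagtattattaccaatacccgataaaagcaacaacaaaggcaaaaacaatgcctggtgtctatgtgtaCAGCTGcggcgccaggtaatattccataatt
The nub window had 38.6% GC and the pdm2 window 52.5%, both without an E-box. The wor window had 39.6% GC and held 1 CAGCTG. Of all 30000 replicate 1 windows, 40.0% held an E-box.

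Sequence under the 7 IDR summits was rich in A and T. The median GC content was 23.8%, between 22.8% and 32.7%, and over all 2746 IDR windows the median was 30.7% with quartiles of 25.7% and 37.6%. Of the 7 windows, 1 held an E-box, on either strand, against 32.7% of all IDR windows. The count was 3 around replicate 1 summits alone, 2 around replicate 3 summits alone and 3 with 100 bp on either side of the IDR summit. Of all replicate 1 windows, 40.0% held an E-box. Shares over all windows were not counted for replicate 3 or for the wider window. The 2 classes found in the 1 IDR window with an E-box, CAAATG and CAAGTG, were in 10.1% and 4.37% of all IDR windows. Searched on both strands, GAGAG was in 1 of the 7, the Irbp window (8.23% of all), and CGATAG, the BEAF site (3.86%), TATCGATA, the DREF site (1.57%), and CAGGTAG, the Zelda site (0.328%), were in none. With 7 windows these counts are a description, and letters absent from such a window say nothing of what binds there.

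Several of the IDR peaks counted for these genes lay nearer to other genes. By nearest start site among all but transposable elements, 3 of the 7 summits belonged to the gene they were counted for, 2 at brat and 1 at grh, and 4 to AsnRS, Polr1D, Irbp and pnut. Within 500 bp of any start site lay 4 of 7, where all IDR summits had 54.8%. The other 3 were in introns, as were 31.2% of all IDR summits. The median IDR signal value of the 7 was 124.2 and that of the whole list 106.3, with 4 of the 7 above it. In both replicates, 4 of the 7 were among the 2746 strongest, as were 2078 of the 2746. The 3 that were not, 2 at brat and the 1 at dpn, all fell short in replicate 1, as did 15.7% of all IDR peaks. The plot of ranks in both replicates shows the brat promoter peak apart from the rest.

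**Figure D3:**
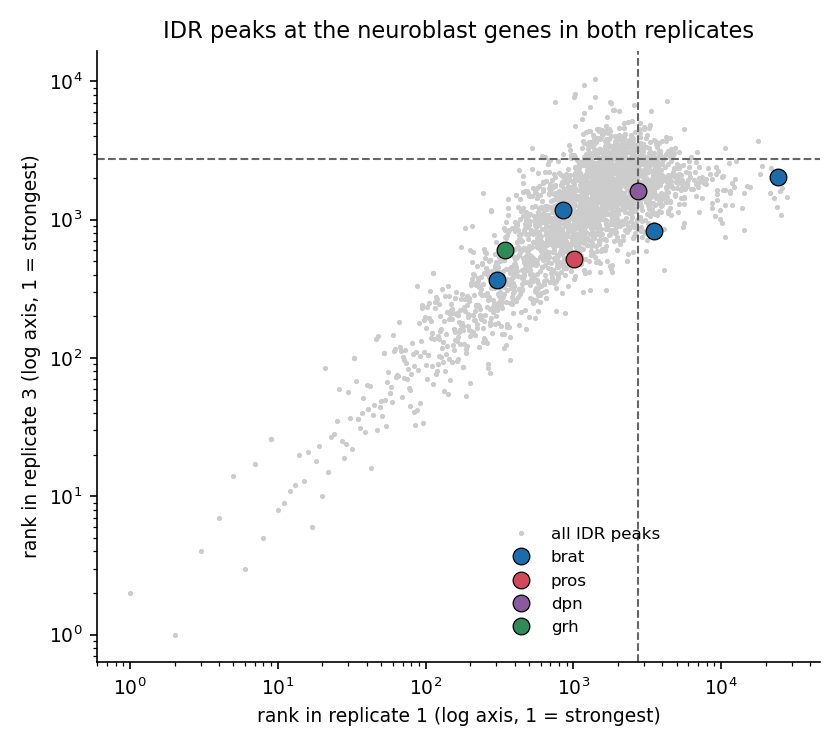
Rank in replicate 3 against rank in replicate 1 (both log axes, 1 for the strongest) of the strongest replicate peak overlapping each IDR peak. Grey points are all IDR peaks found in both lists, coloured points those at brat, pros, dpn and grh, and dashed lines mark rank 2746. The brat promoter peak lies far right at rank 24118 in replicate 1 and 2039 in replicate 3. The IDR procedure selects on ranks, so the diagonal is in part built in.

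The full replicate lists, weak peaks included, gave the following at the 10 genes. The windows, 355202 bp in all, held 81 of the 30000 peaks of replicate 1 and 106 of those of replicate 3, that is 2.28 and 2.98 per 10 kb against 2.18 per 10 kb over the genome in each list. Single genes ranged from 0.751 at mira, with nub next at 1.19, to 3.76 at mid in replicate 1. In replicate 3 they ranged from 0 at mira to 5.0 at brat. The median rank of the peaks was 14432 in replicate 1 and 17237 in replicate 3, around the middle rank of 15000.5. Strong ones were 6 of 81, or 7.41%, and 9 of 106, or 8.49%, where the whole lists have 9.15% by construction. Of the 81 replicate 1 peaks, 38 overlapped a replicate 3 peak, or 46.9%, against 44.8% of all replicate 1 peaks. All 6 strong ones did, and of the other 75 it was 32, or 42.7%, where the whole list below rank 2746 had 39.4%. In replicate 3 the share was 42 of 106, or 39.6%, against 46.8%. At least 1 shared peak was found at 7 of the 10 genes, and 75.0% of all protein-coding genes had one. By location, 37 of the 81 replicate 1 peaks and 49 of the 106 replicate 3 peaks were in introns, and 7 and 6 in coding exons. Locations were not counted over the whole replicate lists, so these counts only describe the windows. A list may hold peaks that overlap each other, so these counts are of peaks and not of separate sites.

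Other genes of neuroblast biology, 36 in number, were grouped by role, and the counts differed from role to role. The role lists were chosen with earlier results of these data known, so differences between roles are a description only. In all, 13 of the 36 had an IDR peak, or 36.1%, close to the 37.0% of all genes and below the mean of 45.03% for genes of like length. Of 8 genes for the apical complex and spindle orientation, which set the axis of the unequal division, 7 had one, where genes of like length had 46.8%. The strongest were at cno (signal value 366.1, rank 80 of 2746), baz, the fly Par-3 (336.2, rank 105), and par-6 (141.2, rank 790). The cno peak ranked 89 in replicate 1 and 82 in replicate 3, and that of baz 114 and 137. The cno peak was 1925 bp downstream of a cno start site. The par-6 peak was 64 bp from the start site of another gene, CG8188. The strongest peaks of the other 4, which are aPKC, insc, loco and mud, had signal values of 78.6 to 106.7. Of the 8, pins alone had none. The 7 became 4 when each peak went to whichever protein-coding start site was nearest, 4 with the stronger 50% of IDR peaks and 5 with the gene body alone. The strongest peaks of insc and aPKC were nearest to start sites of other genes, sktl and ckn. Of 3 cortical tumour suppressor genes, dlg1 (98.1) and scrib (97.8) had a peak and l(2)gl had none.

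Of 4 genes for basal cargo and its partners, 2 had a peak: numb, a Notch inhibitor that goes to the same daughter as Pros (223.0, 145 bp upstream of its start site), and jar, a myosin VI gene (133.7, with 3 peaks). The peak of numb ranked 208 in replicate 1 and 402 in replicate 3. Pon and stau had none. No IDR peak was found at the neural identity genes SoxN, D, sna, esg and ase (0 of 5), at the early temporal genes hb, Kr and svp (0 of 3) or at the columnar genes vnd, ind and Dr (0 of 3). Genes of like length had 38.5%, 46.8% and 43.1%. Among the 2746 strongest peaks of the authors' pooled list, SoxN, esg and Dr had one, and Dr also had one among those of replicate 3 alone. Of 6 larval self-renewal and late temporal genes, chinmo alone had one (138.4), and of 4 genes of differentiation after division, lola alone (177.6, 474 bp upstream of its own start site, 3 peaks). The roles hold 3 to 8 genes each, their lists were chosen with earlier results known, and the difference between them was not tested.

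**Figure D4:**
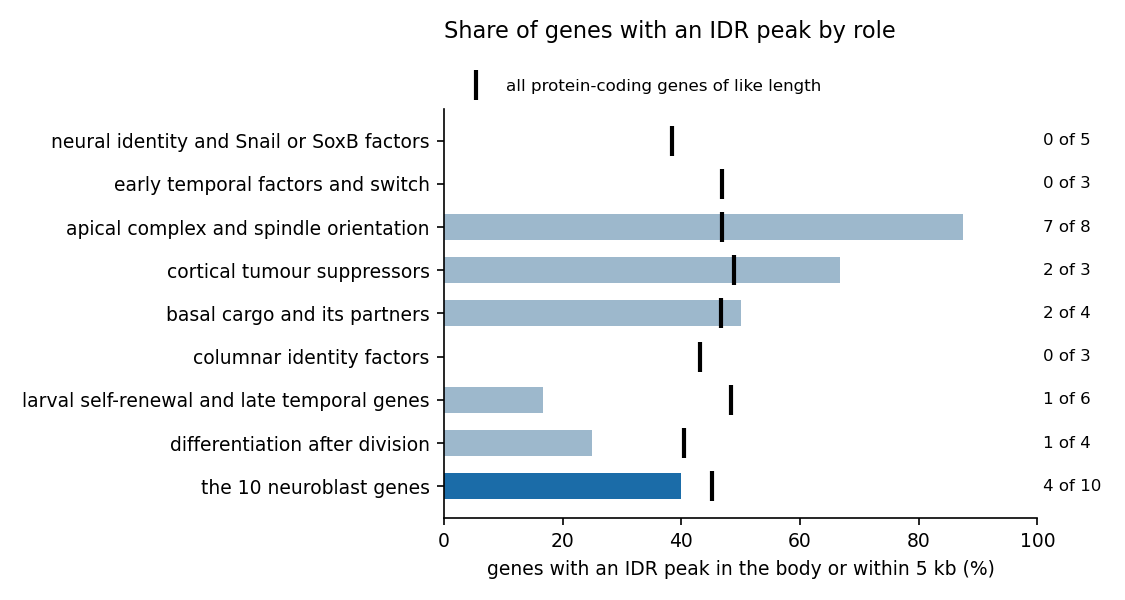
Share of genes with an IDR peak in the body or within 5 kb (%, horizontal bars from 0) for the other neuroblast genes by role and for the 10 neuroblast genes, with counts at the right. Black ticks are the mean share over all protein-coding genes in the same length classes. The role lists were chosen with earlier results of these data known. The apical complex group stands at 87.5%, and the 10 genes at 40.0% lie close to their tick at 45.11%.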

How the data were processed

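The authors deposited peak lists on dm6 whose values are the signal values of their peak caller. Per the file lists deposited with each library, each replicate list was derived from its alignment and a control alignment, and the IDR list from the replicate and pooled lists. The peak caller, the aligner, their versions and the read depth are unknown here (not given in the sources used), so no counting error could be stated. The dm3 lists were not used.

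Genes and start sites came from Ensembl release 115 (BDGP 6.54) and bases from RefSeq's dm6 assembly. All peak ends lay within its chromosome lengths. Positions are 1-based. Windows, overlaps and motif counts were computed with Python 3.11.15, numpy 2.4.6 and pandas 2.3.3, and plots with matplotlib 3.10.9. The window count was tested on simulated data, where all 200 planted genes of 1000 were recovered.

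A summit's nearest start site left out transposable elements, and the share within 500 bp of a start site kept them. All 10 genes are named, as are other neuroblast genes with an IDR peak (up to 3 a role) and genes whose start site is nearest. Further neighbours, and list genes beyond those, were named after their values were seen. The sequences follow the same rule, except that all brat peaks are shown. The genes and role lists were chosen with earlier results of these data known. No test was made, since 2 replicates of 1 condition allow none.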

Additional observations from a re-analysis of the deposited data

How the results depend on the processing

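Of 39 comparisons with another setting, 28 kept the count within 1.5 times. The shares of all protein-coding genes were not counted under these settings, so the changes have no background beside them. The count of neuroblast genes with an IDR peak fell from 4 to 2, and that of their peaks from 7 to 4, with the gene body alone and with 1 kb on each side; brat and grh remained in both. The count of peaks was also 4 with the stronger 50% of IDR peaks and when each peak went to whichever protein-coding start site was nearest, which left brat and grh and added mid. With 10 kb on each side, cas and mid joined, for 6 genes. Taking the 2746 strongest peaks of 1 replicate in place of the IDR list, without replicate 1 or without replicate 3, gave 3 to 4 genes, 6 to 9 peaks and 13 to 16 of the other neuroblast genes. The 2746 strongest peaks of the authors' pooled list gave 3 genes, brat, pros and pdm2, so that dpn and grh were lost and pdm2 was gained. The rows and signal values of the pooled list differ from those of the IDR list. The grh peak ranked 346 in replicate 1 and 601 in replicate 3, and why it was lost here was not tested. The other neuroblast genes fell from 13 to 8 with the stronger 50% of IDR peaks. Among the 10000 strongest of each list, 16 of 30 replicate 1 peaks at the genes overlapped a replicate 3 peak. The full lists gave 38 of 81. The share over all replicate 1 peaks was not counted among the 10000 strongest. The count of IDR windows with an E-box was 1 of 7. It was 3 with 100 bp on either side of the same summit, and 2 to 3 around the summit of 1 replicate alone. The count thus changed with the width of the window and with the summit used. Shares over all windows were not counted for the wider window or for replicate 3. No paired analysis was possible because the study has 1 group.

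Read depth limits every rank here and is unknown. Absence from the IDR list does not show that a place is unbound, and some such places had a peak in both replicates.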
